A study of Homo sapiens with 6 samples.

Results

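Human chromosome 3 was described in SW480 and SNU-C1, both colon cancer cell lines, from in situ Hi-C maps in 40-kb bins on hg19. HCC1954, from breast cancer, and OE33, from oesophageal adenocarcinoma, served as the other lines of each comparison. No line was treated, and no non-tumour cells are among the maps used here. A single map was used for each line other than SW480. That line had maps of replicate 1 and replicate 2 and a further map without a number. On chromosome 3, 99.98% of the bin pairs of the further map held exactly the read pairs of the replicates added together, and it was used as their pool. The study reports Hi-C in duplicate and calls its replicates biological but does not say what separates them, such as the culture or the day. With 1 map in 3 of 4 lines no test across samples was run, and no p-value is given.

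Chromosome 3 held 11570455 of the 114060771 pairs of usable bins within chromosomes. Usable bins, 4811 of 4951 on this chromosome, had at least 0.25 of the median coverage in each of the 4 lines. The deposited values are contact frequencies after iterative correction, and whole read pairs were recovered from them at 100% of the values tested on this chromosome. Recovered read pairs on chromosome 3, without those inside a bin, came to 5136772 and 5237603 in replicates 1 and 2 of SW480 and 9525421 in SNU-C1. HCC1954 had 6847012 and OE33 had 5858505. The SW480 maps differ in form from the others. Replicates 1 and 2 also held 1030119 and 1048173 read pairs inside bins of this chromosome, and the other 3 lines held 0. Read pairs between chromosomes made up 0.216% of pooled SW480, 14.8% of SNU-C1, 19.6% of HCC1954 and 36.6% of OE33. Any effect of this on differences between SW480 and the other lines was not tested, and the SW480 replicates cannot show it. The contacts were chosen from the same maps in which they are described. A pair of 200-kb blocks at least 2 Mb apart counted as line-specific on 2 conditions. Its contact frequency over the mean at the same distance (O/E) had to reach 4, and with 0.5 added throughout it had to exceed the O/E of every other line at least 4 times. For SW480 this had to hold in both replicates, and for SNU-C1 with at least 10 read pairs. The rule kept 163 block pairs in SW480 and 236 in SNU-C1 of 456594 on the chromosome, and their levels are therefore a description and no test.

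Chromosome 3 is a large chromosome with its centromere near the middle. Its short arm carries genes often lost in carcinomas, among them the TGF-beta receptor gene *TGFBR2* and *FHIT*, a gene that spans a common fragile site, while its long arm carries growth genes such as *PIK3CA*, *MECOM* and *SOX2*. In Hi-C, sequences that lie next to each other on a rearranged chromosome show many more read pairs than their reference distance gives, and the excess starts at a corner and falls with distance from it. Such corners mark pairs of loci, and the read pairs of a corner come from many fragments on both sides. Chromatin also separates into 2 compartments, A with many genes and active chromatin and B with few, and into domains divided by boundaries across which few read pairs form.

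Sequence was read from the GRCh37 reference. Sites cut by MboI (GATC) numbered 92 to 146 in the 8 bins at the ends of the contacts, against a median of 95 and a range of 54 to 177 over all usable bins of the chromosome. The surroundings of the word CAGGGGGCG, in capitals, are shown at a pair of sites within 200 kb of a contact end of SNU-C1 and in the bin next to a domain boundary. They are examples of 4 such sites, 1 at the end at 122.08 Mb and 3 at the end at 184.16 Mb, and the site shown for the latter is not the nearest to that end. The first lies in an intron of *CSTA* at chr3:122059460-122059508 on the minus strand and the second in *POLR2H*, outside its annotated exons, at chr3:184080305-184080353 on the plus strand.
CSTA site: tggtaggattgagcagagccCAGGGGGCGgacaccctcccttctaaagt
POLR2H site: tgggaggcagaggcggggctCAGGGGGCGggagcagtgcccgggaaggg

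In SW480, the short arm at *SLC4A7*, a sodium bicarbonate cotransporter gene, and the long arm at *PPP2R3A*, a subunit gene of the phosphatase PP2A, and *MSL2*, a ubiquitin ligase gene of a histone acetyltransferase complex, had the densest contact of the chromosome. Among the 163 block pairs, 148 joined the short to the long arm, including the 65 within 6 Mb of the corner described below. With 446 blocks on the short and 519 on the long arm, pairs between the arms are common among those tested. Their share was not counted. The 163 block pairs formed 112 contacts once neighbours were joined, 105 of them of a single block pair. They made up 0.0357% of the block pairs of chromosome 3, the second highest share of any chromosome, against 0.0123% over all chromosomes (554 of 4502087). Without chromosome 3 the share was 0.00967% (391 of 4045493). With the expected value from chromosome 3 alone, 62 block pairs were left, 45 of them within 6 Mb of the corner described below. The height of the share above the background thus depends on the expected value used. Among the 163, the median was 12 read pairs per block pair and the lowest 3. The contact at *SLC4A7* covered 46 block pairs at 27.4 to 28.8 Mb with 135.8 to 138 Mb and held 2381 read pairs. Its corner lay at the bins chr3:27480001-27520000 and chr3:135840001-135880000, 108 Mb apart. The corner bin pair held 23 read pairs in replicate 1 and 14 in replicate 2, and 0 in each other line. Over the 3 by 3 bins around it, replicate 1 held 81 read pairs (O/E 186, exact Poisson 95% interval 148 to 232) and replicate 2 held 62 (O/E 144, 111 to 185). In the same bins SNU-C1 and HCC1954 had 0 read pairs and OE33 had 1. Poisson intervals cover counting error only.

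The excess lay on the side of higher coordinates at both ends and stopped at the corner. In the square of 1 Mb above both corner bins, replicate 1 held 668 read pairs (O/E 27.0) and replicate 2 held 618 (O/E 24.6). The other 3 squares around the corner held 26 to 44 read pairs each in the pooled map, with an O/E of 0.697 to 1.12. O/E in the pooled map was 164 within 0.2 Mb of the corner, 49.1 at 0.2 to 0.48 Mb, 12.6 at 0.48 to 1 Mb, 7.0 at 1 to 2 Mb and 3.36 at 2 to 4 Mb, with both ends moved equally. In the other 3 lines it was between 0 and 1.97 in every one of those steps. Against the 1 Mb of the long arm, the read pairs per bin went from 6 to 76 to 296 over 3 neighbouring bins at *SLC4A7*, so part of the bin below the corner belonged to the raised side. Against the 1 Mb of the short arm they went from 3 to 149 between neighbouring bins at 135.84 Mb.

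**Figure D1:**
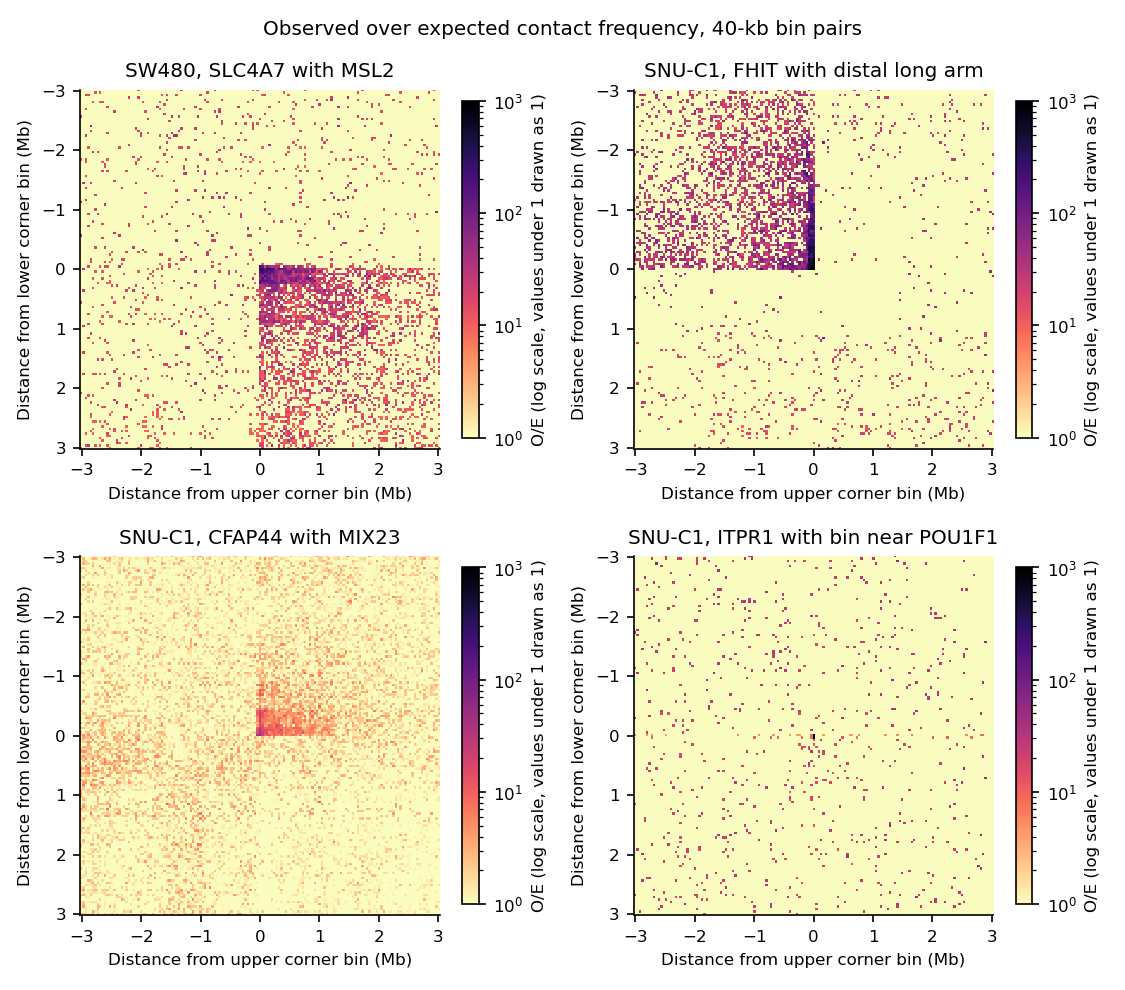
O/E of 40-kb bin pairs (log colour scale, values under 1 drawn as 1) within 3 Mb of the corner bins of 4 contacts, in the pooled SW480 map and in SNU-C1, with the distance from the lower corner bin down and from the upper corner bin across. The excess fills a single quadrant at *SLC4A7* and *MSL2*, at *FHIT* and at *CFAP44* and *MIX23*, while at *ITPR1* it is confined to the centre.

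Coverage, the recovered read pairs of a bin with other bins of its chromosome over the autosomal median of its map, differed across both ends. Its median over 5 Mb was 0.954 below and 1.32 above the *SLC4A7* end in replicate 1, and 0.945 and 1.31 in replicate 2. HCC1954 had a step of like size there, from 1.11 to 1.43, while SNU-C1 (1.04 and 1.14) and OE33 (0.823 and 0.847) differed less. At the *PPP2R3A* end it was 1.01 below and 1.39 above in replicate 1 and 0.997 and 1.40 in replicate 2. The values on both sides of that position were 1.27 and 1.23 in SNU-C1, 1.04 and 1.01 in HCC1954 and 1.23 and 1.23 in OE33, so the step at the long-arm end was found in SW480 and in none of the other 3 lines. The raised quadrant and the raised coverage lay on the same side of both ends.

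Of the 163 block pairs, 65 in 16 contacts lay within 6 Mb of that corner at both ends, among them *RBMS3*, an RNA-binding protein gene, with *PPP2R3A* (40 read pairs in the contact) and 31.32 Mb with *NCK1*, an adaptor gene, and *IL20RB*, a cytokine receptor gene (36 read pairs). The other 98 were spread over 96 contacts of 3 to 38 read pairs per block pair, with a median of 8. The largest of these joined 30.24 Mb with 90.16 Mb (46 read pairs in 2 block pairs) and *ITPR1*, the gene of an inositol trisphosphate receptor, with *ROBO1*, an axon guidance receptor gene (38 read pairs). The 3 by 3 bins of the *ITPR1* and *ROBO1* contact held 7 read pairs in replicate 1 and 9 in replicate 2, against 0, 1 and 0 in SNU-C1, HCC1954 and OE33. Repetition in the second replicate differed with the number of read pairs, counted over block pairs that are not independent where they neighbour. Replicate 1 alone met the rule at 1364 block pairs with a median O/E of 5.66, and at the same block pairs the median in replicate 2 was 1.65, with 17.5% at 4 or more. For the 81 of them with at least 10 read pairs the medians were 12.9 and 8.37, with 70.4% at 4 or more in replicate 2. From replicate 2 to replicate 1 the shares were 19.5% of 1243 and 72.6% of 84. The whole rule, with its ratio to the other lines, was met in the other replicate by 41 of those 81 and 47 of those 84. How many of these belong to the *SLC4A7* contact, with its 46 block pairs, was not counted, so their share gives no rate for other contacts. Most block pairs of few read pairs in a single map did not recur. This bears on the SNU-C1 contacts of few read pairs, as no second map of that line was used.

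In SNU-C1, the distal long arm was in contact with *FHIT*, the gene of a diadenosine triphosphate hydrolase. Among the 236 block pairs, 229 joined the 2 arms, including the 153 within 6 Mb of the corner described below. As above, the share of tested block pairs between the arms was not counted. The 236 block pairs formed 95 contacts, 75 of a single block pair. They made up 0.0517% of the block pairs of chromosome 3, the third highest share of any chromosome, against 0.0399% over all chromosomes (1798 of 4502087). Chromosome 15 held 1208 of the 1798, and without it the share was 0.0133% (590 of 4435154). The median was 13 read pairs. At the limit of the rule, 43 block pairs held 10 read pairs, with an O/E of 4.55 to 17.6, and 78 more held 9, with an O/E of 4.19 to 14.5. Without a minimum, 1237 block pairs met the O/E and the ratio. By the rule used for SNU-C1, the pooled SW480 map had 201 block pairs on this chromosome, HCC1954 11 and OE33 34.

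The contact at *FHIT* covered 104 block pairs at 57.4 to 60.2 Mb with 181 to 184.2 Mb and held 2569 read pairs. Its corner lay at chr3:60240001-60280000, in an intron of *FHIT*, and chr3:184160001-184200000, a bin without a protein-coding gene 51.5 kb from *CHRD*, the gene of the BMP antagonist chordin. The lower corner bin is not among the usable bins, because OE33 had under 0.25 of its median coverage in 7 bins at 60 to 60.4 Mb that were low in no other line. The corner bin pair held 71 read pairs and the 3 by 3 bins held 200 (O/E 640, exact Poisson 95% interval 555 to 736). The other 3 lines and both SW480 replicates held 0 there. The excess lay on the side of lower coordinates at both ends, the opposite quadrant to that of SW480. The square of 1 Mb below both corner bins held 778 read pairs (O/E 37.3), and the other 3 squares held 13, 8 and 2. O/E was 534 within 0.2 Mb, 38.3 at 0.2 to 0.48 Mb, 21.9 at 0.48 to 1 Mb, 12.1 at 1 to 2 Mb and 4.86 at 2 to 4 Mb. Both edges were sharp. Read pairs per bin fell from 149 to 1 above the *FHIT* corner bin and from 419 to 0 above the corner bin at 184.16 Mb. At the distal end the 3 bins up to the corner held 217, 306 and 419 read pairs and the next bin inward 47. The domain boundary nearest this end lay at 184.04 Mb in all 4 lines.

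**Figure D2:**
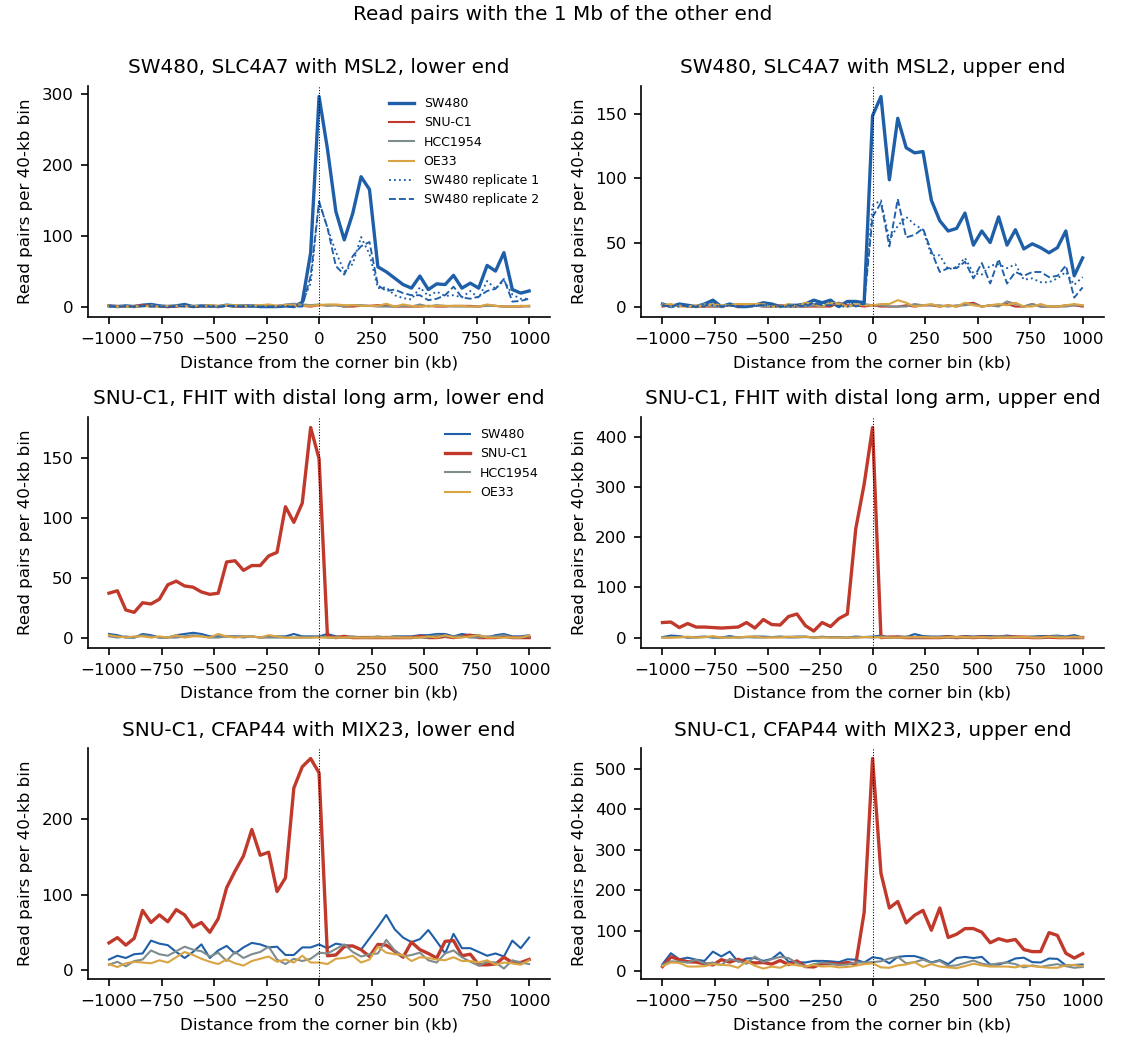
Read pairs per 40-kb bin with the 1 Mb on the raised side of the other end, against the distance from the corner bin (kb), for 3 contacts (rows) at the lower and upper end (columns); lines are maps. SW480 and both its replicates stand above the other lines from the corner upward, SNU-C1 from the *FHIT* corner downward (149 to 1 read pairs across the edge), and at *CFAP44* and *MIX23* on the outer side of each end.

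Median coverage over 5 Mb in SNU-C1 was 1.01 below and 1.45 above the *FHIT* end, against 1.17 and 1.18 in SW480, 1.13 and 0.969 in HCC1954 and 0.805 and 0.812 in OE33. Relative coverage, the coverage over the median of the other 3 lines, was 0.892 below and 1.55 above that end in SNU-C1, and 0.998 below and 0.823 above the distal end. At 184.16 Mb the raised quadrant thus lay on the side of higher coverage. At *FHIT* the order depended on the distance from the corner. Over 5 Mb coverage was lower on the side of the raised quadrant, but within *FHIT* itself (38 bins) it was higher there, with a median in SNU-C1 of 1.11 up to the corner and 0.776 beyond it to the end of the gene at higher coordinates. In SW480 the median over the gene was 1.25 with 5 bins under 0.25, in HCC1954 0.830 with 0 such bins and in OE33 0.587 with 12 such bins. Of the 236 block pairs, 153 in 26 contacts lay within 6 Mb of this corner at both ends. They include *DNAH12*, a dynein gene, *PDE12* and *ARF4* with *KLHL24* and *YEATS2* (63 read pairs in 4 block pairs) and *ERC2*, a presynaptic scaffold gene, with 180.48 Mb (60 read pairs in 5 block pairs).

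Within the long arm, SNU-C1 had a contact between *CFAP44*, a gene of sperm flagella, and the stretch of *CSTA*, *MIX23*, *FAM162A*, *WDR5B* and *KPNA1*, which hold among others a cystatin and an importin gene. It covered 4 block pairs at 112.6 to 113.2 Mb with 122 to 122.4 Mb and held 1143 read pairs, with its corner at 113.12 and 122.08 Mb, 8.96 Mb apart. *SPICE1*, a centriole gene, lies in a neighbouring bin of the lower end. The 3 by 3 bins held 253 read pairs in SNU-C1 (O/E 20.9, exact Poisson 95% interval 18.4 to 23.7). SW480 replicates 1 and 2 had 8 and 7 there (O/E 1.67 and 1.36), HCC1954 had 6 (0.865) and OE33 had 3 (0.541). The raised square here lay below the lower and above the upper corner, with 1987 read pairs in 1 Mb (O/E 3.44), and the other 3 squares had an O/E of 0.935 to 1.28. O/E went from 16.4 within 0.2 Mb of the corner to 5.28, 1.95, 1.05 at 1 to 2 Mb and 0.652 at 2 to 4 Mb. In the last of these steps it was 0.350 in SW480, 0.457 in HCC1954 and 0.414 in OE33, so SNU-C1 remained the highest of the 4 lines there. Read pairs per bin fell from 261 to 19 across the lower edge and, going inward, from 526 to 145 to 17 across the upper edge. Relative coverage of SNU-C1 was 1.61 in the 5 Mb below, 0.963 between the corners and 1.13 in the 5 Mb above. In SW480 it was 1.06, 1.08 and 0.930.

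The third contact of SNU-C1 had a different shape. A single block pair, with *ITPR1* at the lower end and a bin without a protein-coding gene at the upper end, 114 kb from the pituitary factor gene *POU1F1*, held 1049 read pairs, of which 598 joined the bins at 4.68 and 87.44 Mb and 445 the bins at 4.72 and 87.44 Mb. The 3 by 3 bins held 1046 read pairs in SNU-C1 (O/E 564, exact Poisson 95% interval 531 to 600). Both SW480 replicates had 0 there, and HCC1954 and OE33 had 1 each. Without correction the O/E of this contact was far above that interval, as the closing section gives. No quadrant was raised. The squares of 1 Mb around it had an O/E of 0.549 to 0.942 in SNU-C1, below the 1.59 to 3.55 of the other 3 lines. Relative coverage of the bins at 4.68, 4.72 and 87.44 Mb in SNU-C1 was 1.98, 1.89 and 1.92. It leaves out their read pairs with other chromosomes.

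The same bins had most of their read pairs with other chromosomes on chromosome 11. In SNU-C1 the bin at 4.68 Mb had 48822 read pairs with other chromosomes, 85.6% of them with chromosome 11, of which 14050 lay at 23.68 to 24 Mb and 26558 at 34.92 to 35.4 Mb. For the bin at 4.72 Mb the number was 13825 (79.8% with chromosome 11) and for the bin at 87.44 Mb 8700 (74.3%). The bins beside these held 341 to 1236 read pairs with other chromosomes, 4.69% to 6.96% of them with chromosome 11. In HCC1954 and OE33 the share with chromosome 11 was 3.94% to 6.33% in the bins at both ends. The second of these stretches of chromosome 11 holds *APIP*, *PDHX*, *CD44*, a cell adhesion receptor gene, and *SLC1A2*. SW480 could not be compared, because read pairs between chromosomes made up 0.216% of its map, against 14.8% in SNU-C1.

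The remaining 78 block pairs of SNU-C1, in 67 contacts, lay outside 6 Mb of these 3 corners and held 10 to 27 read pairs, with a median of 11.

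Along the chromosome, coverage was more uneven in SNU-C1 than in SW480, with an SD of log2 relative coverage over blocks of 0.36 against 0.27 in each SW480 replicate. The SD was 0.325 in HCC1954 and 0.344 in OE33, so SNU-C1 was close to both and SW480 was the most even line. Segments were cut where the log2 of relative coverage in 200-kb blocks changed by at least 0.25 between stretches of at least 5 blocks. SNU-C1 had 10 segments. Relative coverage was 1.01 from the short-arm end to 61.2 Mb, in *FHIT*, and 1.96 from there to 63.6 Mb, in *SYNPR*, a synaptic vesicle gene. It was 1.23 up to 73.2 Mb (*PPP4R2*), 1.86 up to 77.8 Mb (*ROBO2*), 1.5 across the centromere up to 97.4 Mb (*EPHA6*, an ephrin receptor gene), 1.23 up to 102.6 Mb and 1.76 up to 111.2 Mb, in *CD96*, a lymphocyte receptor gene. The level was 1.15 from there to 181.2 Mb, 0.865 up to 193.4 Mb, at *ATP13A4* and *OPA1*, and 0.723 over the last stretch to *LMLN*. Relative coverage was thus raised from 61.2 to 111.2 Mb. This raised stretch began 0.96 Mb above the *FHIT* corner and ended 1.92 Mb below the corner at *CFAP44*. Of the other 7 segment edges, those at 63.6 and 181.2 Mb lay 3.36 and 2.96 Mb from the nearest corner, and the other 5 lay 9.24 to 12.96 Mb from any corner. Edge positions depended on the settings. With the mean of HCC1954 and OE33 as reference there was an edge at 183.8 Mb and none at 97.4, 102.6 or 193.4 Mb. With a log2 step of 0.15 there were edges at 113.2, 122 and 184.2 Mb, in or beside the blocks of the corners. That step cut many more segments, as the closing section gives, and these edges were picked from them with the corners known. The edge at 61.2 Mb was found under both settings, but with a log2 step of 0.4 only the edge at 181.2 Mb was left. In the same 10 stretches replicate 1 of SW480 lay between 0.875 and 1.63 and replicate 2 between 0.874 and 1.63, with the highest value of both at 73.2 to 77.8 Mb. HCC1954 and OE33 were low in that stretch (0.618 and 0.565), as also at 61.2 to 63.6 Mb (0.705 and 0.674), and both enter the reference of the colon lines. OE33 had a low segment (0.649) at 54.4 to 113.8 Mb, over the whole stretch of 61.2 to 111.2 Mb. Before division by the other lines, SNU-C1 coverage was 1.61 at 61.2 to 63.6 Mb and 1.63 at 102.6 to 111.2 Mb. In the segments between them it was 1.22 to 1.36, against 1.35 at 111.2 to 181.2 Mb and 0.976 below 61.2 Mb. The colon lines also enter each other's reference. In 205 of the 965 blocks (21.2%) each was the median that the other was divided by, so a single difference between them is counted in both relative values there.

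**Figure D3:**
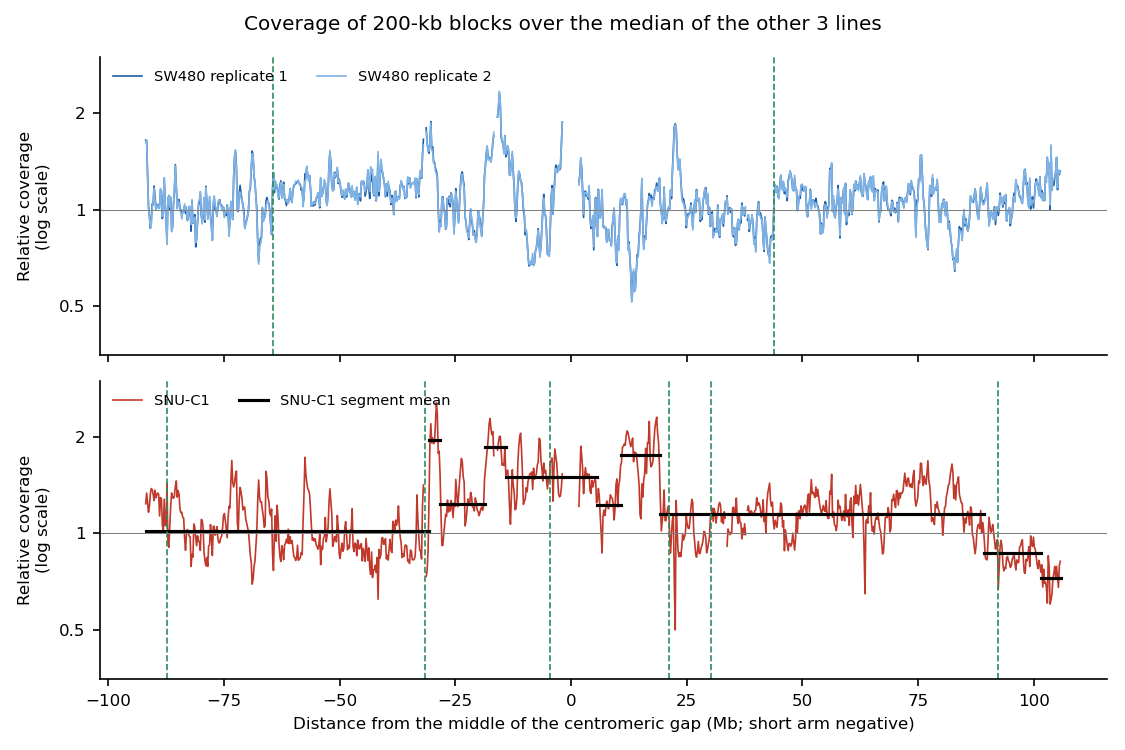
Relative coverage of 200-kb blocks (log scale) against the distance from the middle of the centromeric gap (Mb, short arm negative), for both replicates of SW480 (top) and for SNU-C1 with its segment means in black (bottom); green dashed lines are the ends of the 4 contacts. The replicates lie over each other, and in SNU-C1 the segment means reach 1.96 on the short arm and 1.76 on the long arm and end at 0.723.

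In SW480 the same procedure found 1 segment, at a relative coverage of 1.06, as in HCC1954 (0.990), while OE33 had 10 segments. A procedure that can cut a stretch out of the middle of a longer one, chosen after the data were seen, gave 38 segments in the pooled SW480 map (37 and 35 in the replicates) and 41 in SNU-C1. In it the pool and replicate 2 had a segment edge at 27.4 Mb and the pool and replicate 1 at 135.8 Mb, the blocks of the contact. Neither replicate had both edges, which were picked from all edges with the contact known. Relative coverage was 0.979 before and 1.17 after the first edge in the pool, and 0.935 before and 1.13 after the second. The SD of the log2 difference between the SW480 replicates was 0.02 per block and the largest absolute difference 0.09. Steps between SNU-C1 segments lie above this by the rule, which asked for at least 0.25. The spread between maps of SNU-C1 is not known. Windows of 2 Mb ranged from 0.633 to 1.69 in replicate 1 and from 0.644 to 1.72 in replicate 2, and from 0.687 to 2.08 in SNU-C1. In Hi-C maps, coverage also reflects how well each region is recovered, and its part was not tested.

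Genes were grouped by role, and each is given its relative coverage and its compartment. The 11 short-arm tumour suppressor and repair genes listed here had a median relative coverage of 1.08 and 1.07 in the replicates of SW480 and 0.935 in SNU-C1, beside 1.08, 1.09 and 0.972 over the 1042 protein-coding genes of the chromosome with a value. *TGFBR2* had 1.08 and 1.06 in the replicates and 0.935 in SNU-C1. Before division by the other lines, coverage at *TGFBR2* was 1.85 and 1.81 in the replicates and 1.73 in SNU-C1, a smaller gap. *RASSF1*, whose promoter is often methylated in carcinomas, had 1.29 and 1.34 in the replicates and 0.698 in SNU-C1, the lowest of this list in that line. OE33 had its highest value of the list at *RASSF1* (1.81), and *VHL*, the ubiquitin ligase gene of oxygen sensing, lay close to 1 in SW480 (1.0 and 1.01) and at 0.864 in SNU-C1. The pattern was not the same over the whole arm, as *RARB* (0.869 and 0.861 against 1.21) and *FOXP1* (0.828 and 0.796 against 1.25) were lower in SW480 than in SNU-C1.

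The 5 fragile or very long genes had a median of 1.09 and 1.06 in the SW480 replicates and 1.45 in SNU-C1. *PTPRG*, a receptor phosphatase gene beside *FHIT*, had 1.56 and 1.51 in SW480 and 1.97 in SNU-C1, against 0.604 in HCC1954 and 0.571 in OE33. *CADM2* (0.826 and 0.816 against 1.65) and *NAALADL2* (0.728 and 0.739 against 1.45) were lower in SW480. *FHIT* had 1.57 and 1.55 in SW480 and 0.908 in SNU-C1, and *LSAMP* 1.09 and 1.06 against 0.958, the opposite order. In SW480, 5 of the 38 bins of *FHIT* had coverage under 0.25 and are not usable bins, against 0 such bins in SNU-C1. These 5 genes therefore had no common direction.

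On the long arm, the 13 growth genes had a median of 1.08 and 1.10 in the SW480 replicates and 0.970 in SNU-C1. *MECOM*, a zinc finger transcription factor gene, stood apart with 0.812 and 0.803 in SW480 and 1.56 in SNU-C1. *PIK3CA*, the catalytic subunit of PI3-kinase, had 1.08 and 1.10 against 0.970, and *SOX2* 1.08 and 1.07 against 0.879. At the long-arm end *TFRC*, the transferrin receptor gene, had 1.12 and 1.18 against 0.667. The mucin genes *MUC4* (1.15 and 1.22 against 0.538) and *MUC20* (0.975 and 1.03 against 0.564) lie beside it in the segment of lowest coverage of SNU-C1. *SI*, the sucrase-isomaltase gene of the intestinal brush border, had 1.10 and 1.14 in SW480 and 1.48 in SNU-C1, and the median of the 10 intestinal and mucin genes was 1.07, 1.08 and 0.942. Of the 4 Wnt pathway genes, *CTNNB1*, which encodes beta-catenin, had 1.28 and 1.29 against 0.903, *WNT5A* 1.22 and 1.19 against 0.839, *GSK3B* 1.06 and 1.06 against 0.872 and *WNT7A* 1.04 and 1.07 against 0.934. All 4 were lower in SNU-C1 than in both SW480 replicates, as was the median of all genes.

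**Figure D4:**
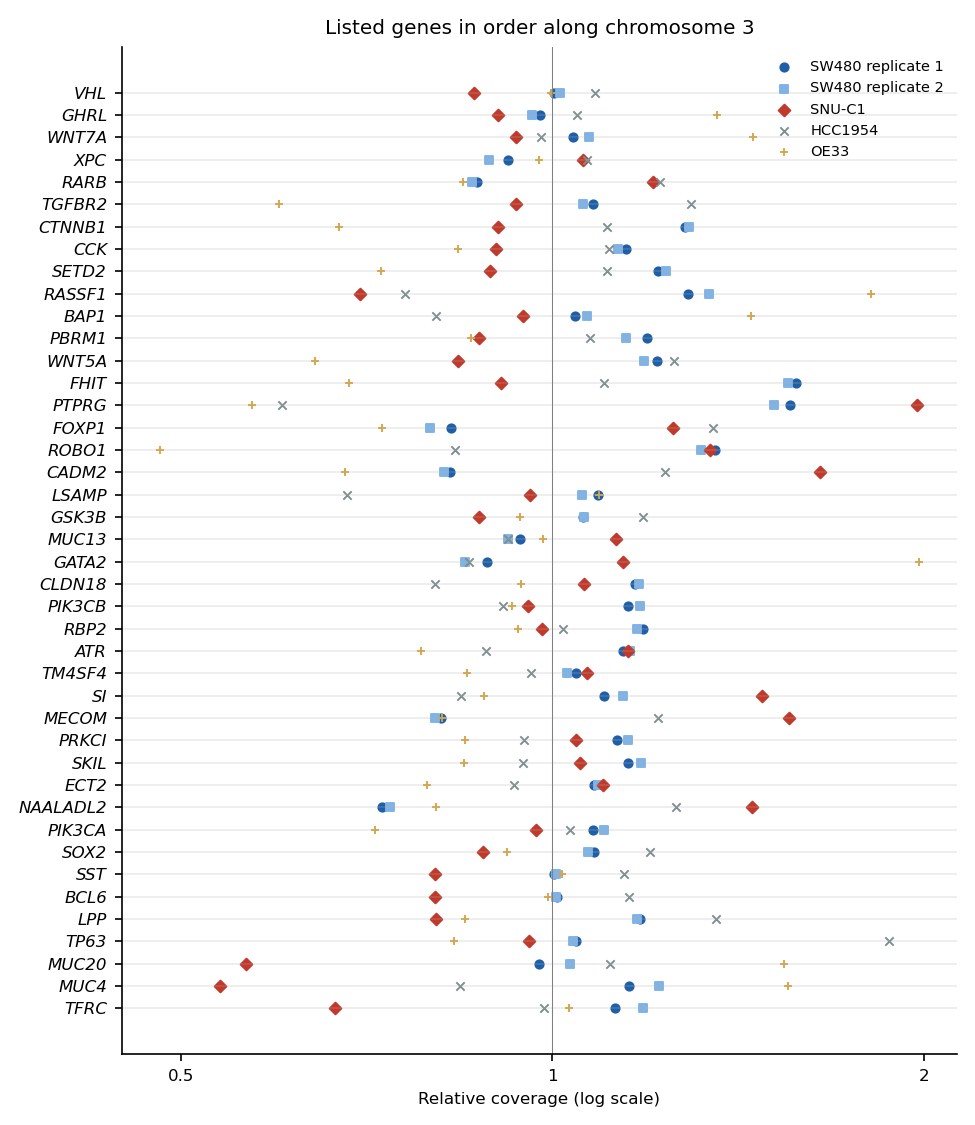
Relative coverage (log scale) of each listed gene, in order along chromosome 3 from the short-arm end, in both SW480 replicates, SNU-C1, HCC1954 and OE33; symbols are maps. The replicates lie close together at each gene, and SNU-C1 is highest at *PTPRG* (1.97) and lowest at *MUC4* (0.538).

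The compartment score is the first principal component of the O/E correlation matrix of 200-kb blocks in each arm, scaled to an SD of 1 and turned so that blocks with more gene starts are positive (A). Over 965 blocks, 446 of them on the short arm and 519 on the long arm, the SW480 replicates correlated with r = 0.996 across blocks, which are not independent, and 17 blocks differed in sign. Pooled SW480 and SNU-C1 correlated with r = 0.850 and 116 blocks differed in sign. The other pairs of lines ranged from r = 0.810 with 147 such blocks (SNU-C1 and HCC1954) to r = 0.884 with 98 (HCC1954 and OE33). The colon lines thus lay within the range of the other pairs. A switch had a different sign in SNU-C1 than in both replicates and a difference above 0.28, the 99th percentile of the absolute difference between the replicates. There were 100 switched blocks in 43 regions, 10.4% of the blocks of chromosome 3, against 13.8% over all chromosomes (1802 of 13081), so chromosome 3 lay below the background. Of these, 69 were in A in SW480 and B in SNU-C1 and 31 the reverse, and 37 lay on the short and 63 on the long arm. The stretch of raised relative coverage in SNU-C1 at 61.2 to 111.2 Mb was chosen with its values in view. It held 40 of its 230 blocks as switches (17.4%), against 8.16% of the rest of the chromosome. Whether coverage plays a part in this was not tested.

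The largest difference was at 78.6 to 79 Mb, mostly within the body of *ROBO1*. The mean score over this region was 0.49 in replicate 1 and 0.62 in replicate 2 of SW480 and -1.36 in SNU-C1. HCC1954 (-0.60) and OE33 (-1.34) were in B there, as SNU-C1. The next was at 139.2 to 140.8 Mb, with *NMNAT3*, *CLSTN2*, *TRIM42*, *SLC25A36* and *SPSB4*, which scored 1.03 and 1.0 in the replicates and -0.76 in SNU-C1. HCC1954 (-0.26) and OE33 (-0.03) lay between them. In the opposite direction, 108 to 109 Mb with 9 genes, among them *HHLA2*, *CIP2A* and *MORC1*, scored -0.88 in both replicates and 0.65 in SNU-C1, and HCC1954 (-0.80) and OE33 (-0.34) were in B. The longest switched region was 113.8 to 115.6 Mb, 9 blocks with *DRD3*, a dopamine receptor gene, *ZNF80*, *TIGIT*, *ZBTB20* and *GAP43*. It scored 0.55 and 0.50 in the replicates of SW480 and -0.93 in SNU-C1. HCC1954 was in B there (-1.25), as SNU-C1, and OE33 scored 1.7e-05. The region begins 0.68 Mb above the lower corner of the *CFAP44* contact, which HCC1954 does not share. Blocks in A in all 4 lines held a mean of 2.28 gene starts (333 blocks), blocks in B in all 4 lines 0.312 (407 blocks) and switched blocks 0.79.

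**Figure D5:**
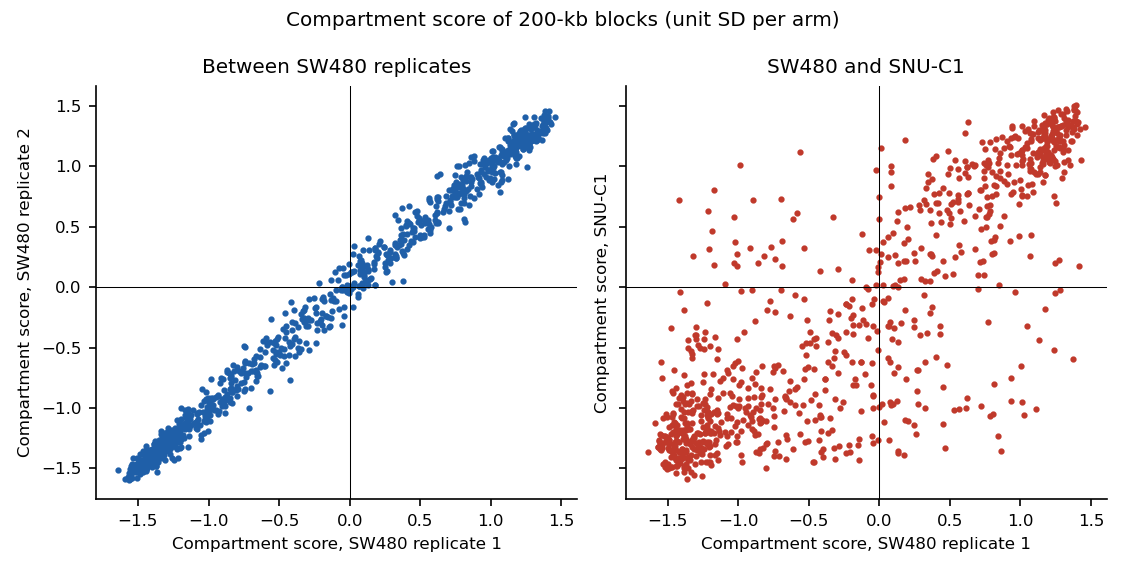
Compartment score of 200-kb blocks of chromosome 3 (unit SD per arm) in SW480 replicate 1 against replicate 2 (left) and against SNU-C1 (right); each point is a block. Replicates follow the diagonal (r = 0.996), and blocks off the diagonal in the right panel fall in both other quadrants.

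A gene was given the compartment of the block that holds its start. On this basis 3 of the 42 listed genes switched (7.14%), all in the long-arm growth list, close to the 7.49% of all protein-coding genes with a value (78 of 1041). The start of *ROBO1* was in B in SW480 (-0.71 and -1.0 in the replicates) and in SNU-C1 (-1.40). The switched region, mostly within its body, lies at its other end. *MECOM* was in B in SW480 (-0.69 and -0.64 in the replicates) and in A in SNU-C1 (0.38), while *PIK3CA* (0.25 and 0.20 against -0.33) and *SOX2* (0.08 and 0.14 against -0.95) were in A in SW480 and B in SNU-C1. In A were 8 and 7 of the 11 short-arm genes in pooled SW480 and SNU-C1, 12 and 11 of the 13 long-arm growth genes, 3 and 3 of the 4 Wnt genes, 7 and 7 of the 10 intestinal and mucin genes and 2 and 1 of the 5 fragile or very long genes. Over all protein-coding genes the shares were 80.4% and 76.8%. *FHIT* (-0.04 and 0.16) and *WNT5A* (-0.13 and 0.06) had opposite signs in the SW480 replicates, so their side in this line lies within the spread between them, and the Wnt genes in A numbered 3 in replicate 1 and 4 in replicate 2.

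Domain boundaries, minima of an insulation score over windows of 1 Mb, were mostly shared between the colon lines, though less than between the SW480 replicates. Pooled SW480 had 199 boundaries on chromosome 3 and SNU-C1 had 201. The replicates had 198 and 201 and shared 190 within 2 bins, 96.0% and 94.5% of each. Pooled SW480 and SNU-C1 shared 159, which is 79.9% of the SW480 and 79.1% of the SNU-C1 boundaries, so 40 SW480 boundaries (20.1%) had none in SNU-C1, close to 18.8% over all chromosomes (471 of 2512). SW480 shared 73.9% with HCC1954 and 72.9% with OE33, and SNU-C1 shared 77.1% and 69.2%. Over 4733 bins, which are not independent, the score of SW480 correlated with that of SNU-C1 (r = 0.893) about as much as with that of HCC1954 (r = 0.901). Boundaries present in all 6 maps numbered 112. In both replicates of SW480 and no other line there were 15, and in SNU-C1 and no other line 20. These counts rest on unlike rules, as SW480 needed both replicates and SNU-C1 has 1 map. Their shares over all chromosomes were not counted, so they give no difference between the lines. The median absolute difference of the score between SW480 and SNU-C1 at boundaries was 0.13, against 0.02 between replicates over all bins.

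The boundary with the largest difference lay at 195.72 Mb, at *TFRC*, with a score of -0.22 and -0.26 in the SW480 replicates and -1.14 in SNU-C1. HCC1954 (-1.11) and OE33 (-1.85) also had low scores there, and the boundary was called in all 4 lines. At 63.96 Mb, at *ATXN7*, a subunit gene of a histone acetyltransferase complex, and *PSMD6*, a proteasome gene, the scores were -0.60 and -0.64 in SW480 and -1.31 in SNU-C1, and the SNU-C1 coverage segments change level close by, at 63.6 Mb. At 175.68 Mb they were 0.31 and 0.33 in SW480 and -0.34 in SNU-C1, with a boundary called in SNU-C1 and HCC1954. At the contact ends, the nearest boundary to the bin at 135.84 Mb lay at 135.6 to 135.76 Mb. That to the bin at 122.08 Mb lay in the same bin in all 4 lines. Other ends lay farther from a boundary. For the bin at 27.48 Mb it was at 27.28 Mb in SW480 and 27.72 Mb in SNU-C1, HCC1954 and OE33. For the *FHIT* end at 60.24 Mb it was at 61.52 Mb in SNU-C1, 61.36 Mb in SW480, 61.4 Mb in HCC1954 and 59.84 Mb in OE33. The word CAGGGGGCG, part of the sequence that the boundary protein CTCF is known to bind, was searched on both strands, and overlap with other words was not considered. It was present in 9.02% of the 4811 usable bins of chromosome 3, in 9.05% of the boundary bins of SW480, in 5.97% of those of SNU-C1 and in 4.50% of the bins that were boundaries in both. The share was 11.5% in the boundary bins of HCC1954 and 12.6% in those of OE33, so the lines lay on both sides of the share of all bins. The sites in *CSTA* and *POLR2H* shown above are in neighbouring bins and enter none of the boundary counts at those positions. No match says only that these letters are absent from a bin.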

How the data were processed

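In situ Hi-C with MboI was processed from 6 deposited maps of 4 cancer cell lines. Per the methods and the submitters' processing notes, the authors used BWA-MEM on hg19 and Picard to take out duplicates, then in-house code for the matrices, which were iteratively corrected. Versions and filters of these steps are not given in the sources. Each deposited value is a signal for 2 bins of 40 kb, namely their read pairs over the factors that the correction assigned to both bins. Correction evens out coverage, so coverage was taken from read pairs recovered by fitting the bin factors (45 iterations, pairs at least 5 Mb apart, whole within 0.02, tested up to 20.5 read pairs). Every column of values was used (0 left out).

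The expected value was the mean at each distance over all chromosomes of a map, smoothed over 10% of the distance. Blocks of 200 kb needed 3 usable bins of 5. Neighbouring block pairs were joined to contacts, and corners were placed with bins usable in the line itself. O/E was limited to 4 before the principal component. Boundaries used an insulation score with the settings that the methods give for public maps of other cell lines at finer bins and another normalization (1-Mb window, 200-kb delta, strength of at least 0.1), here on the corrected 40-kb maps, and were shared within 2 bins. Thresholds and their alternatives are those listed for the rule, and the closing section gives their effect. No test across samples was run, since 3 of 4 lines have 1 map and the spread is known from the SW480 replicates alone. The relative coverage of a gene is the median over its own bins, widened to 5 bins for short genes. Read pairs per bin pair are few at large distances, so single contacts are the least certain values.

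Genes came from the GENCODE annotation lifted to GRCh37, with a value for 1041 of 1045 protein-coding genes, and sequences from the GRCh37 reference. Named genes are those at the 5 contacts with the most read pairs in each line, at segment ends, in the gene lists, and at the 3 largest differences in compartment and in insulation. Some items are not reported here, and a gene left out for this is in no list count. The longest switched region and the coverage inside *FHIT* are not named by this rule and were picked with their values known. Members, lists and rules were chosen with earlier results of these data known. The calculations were tested on simulated data, in which the segmentation missed raised stretches inside a longer segment, and the version that cuts both ends at once found them. The code ran on Python 3.11.15 with pandas 2.3.3, SciPy 1.17.1, NumPy 2.4.6 and Matplotlib 3.10.9.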

Additional observations from a re-analysis of the deposited data

Results flagged for a closer look

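In SNU-C1, read pairs between chromosomes, which enter no comparison within chromosome 3, had their highest O/E in the 1-Mb blocks at 4 to 5 Mb of chromosome 3 and 35 to 36 Mb of chromosome 11. The O/E was 143, from 23463 read pairs (exact Poisson 95% interval 23164 to 23765). At the same blocks HCC1954 had an O/E of 0.996 (8 read pairs) and OE33 0.716 (10 read pairs). The next highest for chromosome 3 in SNU-C1 were 124 with chromosome 5 (62 and 71 Mb, 1036 read pairs), 106 with chromosome 6 (89 and 57 Mb, 745 read pairs) and 44.8 with chromosome 10 (66 and 25 Mb, 318 read pairs). The pair at 89 Mb with chromosome 6 was also high in HCC1954 (63.5, 363 read pairs) and in OE33 (28.6, 281 read pairs). SNU-C1 has 1 map, so no replicate spread is known for these values.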

How the results depend on the processing

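Block pairs specific to SW480 numbered 163 and changed to 20 with 400-kb blocks, 62 with the expected value from chromosome 3 alone, 615 with a threshold of 3 and 42 with a threshold of 6. In a single replicate they numbered 1243 to 1364. Uncorrected read pairs gave 219 and the pooled map with at least 10 read pairs 201, both within 1.5 times the reported count. Within 6 Mb of the *SLC4A7* corner at both ends lay 65 of the 163, and 19 of 20, 45 of 62, 110 of 615 and 35 of 42 under those settings, 107 of 1243 and 114 of 1364 in single replicates, 80 of 219 with uncorrected read pairs and 86 of 201 in the pooled map. Block pairs specific to SNU-C1 numbered 236 and changed to 911 with at least 5 and 48 with at least 20 read pairs, 156 with 400-kb blocks, 372 and 121 with thresholds of 3 and 6 and 393 with uncorrected read pairs. They were 209 with the expected value from chromosome 3 alone and 231 to 239 with a single SW480 replicate. Within 6 Mb of the *FHIT* corner lay 153 of the 236, and 299 of 911, 38 of 48, 88 of 156, 178 of 372, 98 of 121 and 157 of 393 in the order of those settings. Segments of SNU-C1 numbered 10 and changed to 48 with a log2 step of 0.15 and 2 with a step of 0.4, at which a single edge at 181.2 Mb was left and the raised stretch of 61.2 to 111.2 Mb was not found, and to 41 with the procedure that cuts both ends at once, which gave 38 in place of 1 in SW480. Segments of SNU-C1 numbered 9 to 12 and those of SW480 1 under the other settings. Compartment switches numbered 100 and changed to 53 with 400-kb blocks, 11% of the larger blocks, and ranged from 100 to 129 otherwise. Shared boundaries numbered 159 and ranged from 150 to 194. Settings for single contacts were chosen after seeing the data. O/E at the *SLC4A7* corner was 166 in the pool, 144 to 186 in single replicates, 130 with the expected value from chromosome 3 and 230 without correction. For *FHIT* it was 640, 411 and 651, for *CFAP44* 20.9, 22 and 41.6, and for *ITPR1* 564, 530 and 2722, so the last value depends most on the correction. The cause of these changes was not tested. No paired analysis was possible because SW480 is the only line for which separate replicate maps were used. Most contacts of few read pairs did not recur between replicates, and depth was not varied.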
